A study of Mus musculus with 32 samples.

Results

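The genes described here encode the proteins of the cytosolic ribosome, measured by RNA sequencing of sections of frozen quadriceps muscle from mice with and without Col6a2, the gene for the α2 chain of collagen VI. Members were taken by gene name: every name that starts with Rpl or Rps and a number, together with Rpsa, Rplp0, Rplp1 and Rplp2, without names that contain -ps and without the Rps6k, Rps19bp1 and Rps27rt names. This gave 91 of the 53801 genes in the tables, 77 of them canonical ribosomal protein genes and 14 paralogs or copies. Fau, which encodes a ribosomal protein fused to a ubiquitin-like domain, lies outside the naming rule and is given separately.

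Each of 8 groups held 4 mice and each mouse gave 1 library, 32 in all. The groups were wild-type (WT) females at 5 weeks, WT males at 5 weeks, WT females at 25 weeks, WT males at 25 weeks, and the same 4 combinations for mice homozygous for a Col6a2 null allele (Col6a2-/-). The allele is Col6a2 tm1(KOMP)Vlcg, a germline knockout made in C57BL/6N, moved onto C57BL/6J by 5 generations of backcrossing, with heterozygous breeders, so it is absent from every cell of the mouse and not from muscle alone. Values are in TPM (a level scaled for transcript length and for the library total, which is the same in every library), and changes are differences of log2(TPM + 1) from limma, a linear model fitted to all genes at once, with the standard error (SE). A gene is said to be called when its p, adjusted by the Benjamini-Hochberg method over the 12817 genes tested, was under 0.05.

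Ribosomal proteins assemble with ribosomal RNA into a small subunit, which reads the mRNA, and a large subunit, which joins amino acids. Their mRNAs are among the most abundant in most cells and many begin with a run of pyrimidines at the cap (a 5′ terminal oligopyrimidine or TOP motif), through which mTORC1 and LARP1 control their translation. Striated muscle uses a large-subunit paralog of its own, Rpl3l, which takes the place of Rpl3 in mature fibres, while regenerating muscle is known to use Rpl3.

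The sequence at the annotated start is shown for 5 of the 9 canonical members that were called at 5 weeks and carry such a run, picked after their values were seen, and for Rpl3l, which has none of that length there. Each window runs from 30 bases before to 30 bases after the RefSeq start (GRCm38.p6, gene strand, 5′ to 3′), and capitals mark an unbroken run of at least 6 C or T that covers the start.
Rps6 (chr4:86857338-86857397, minus strand): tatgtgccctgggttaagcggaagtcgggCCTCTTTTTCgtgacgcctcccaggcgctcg
Rpl28 (chr7:4792935-4792994, plus strand): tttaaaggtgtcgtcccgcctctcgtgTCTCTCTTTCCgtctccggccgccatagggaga
Rps15a (chr7:118116118-118116177, minus strand): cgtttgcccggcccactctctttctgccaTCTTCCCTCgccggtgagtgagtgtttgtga
Rpl38 (chr11:114668550-114668609, plus strand): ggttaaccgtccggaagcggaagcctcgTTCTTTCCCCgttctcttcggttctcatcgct
Rps10 (chr17:27635215-27635274, minus strand): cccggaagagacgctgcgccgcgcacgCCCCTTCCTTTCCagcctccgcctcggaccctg
Rpl3l (chr17:24727796-24727855, plus strand): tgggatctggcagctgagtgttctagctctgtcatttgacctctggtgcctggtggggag

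RefSeq promoter entries (250 bases before to 50 after the start) matched 66 of the 91 members, 57 of them canonical. A run of at least 6 pyrimidines held the annotated start or the base before it in 20 of the 57 canonical members (35.1%), against 12.5% of 27025 genes with an entry. A gene with several entries was counted, here and for the letters below, if any entry qualified. The letters CCGGAAG on either strand stood somewhere in the whole entry, from 250 bases before to 50 after the start, of 24 of the 57 (42.1%). The share among all genes was 9.93%. Among canonical members called at 5 weeks, 9 of 23 (39.1%) had the pyrimidine run, and among the others 11 of 34 (32.4%). An annotated start can differ by a few bases from the start used in muscle, so these shares describe the annotation.

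The deposited values separated the genotypes at the targeted gene. Col6a2 lay between 6.60 and 51.2 TPM in the 16 WT libraries and at most 0.171 TPM in the 16 Col6a2-/- libraries. The fast-muscle markers summed to between 41227 and 75718 TPM over all groups, and the 10 lymphocyte markers to at most 2.64 TPM. Depth could be inferred only in relative terms, from the ratio of coverage to FPKM, which ran from 6.78 to 13.7 and was lower at 25 weeks (WT 7.95 ± 1.33, Col6a2-/- 8.47 ± 1.38) than at 5 weeks (WT 10.99 ± 1.80, Col6a2-/- 10.1 ± 2.47; SD, n = 8). Of all TPM, 31.9% to 46.9% fell to mitochondrial transcripts and 19.4% to 28.7% to Rn7s1, Rn7s2 and Rn7s6, copies of the 7SL RNA, so the level of every other gene on this scale also depends on those shares.

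All 91 members together held between 0.724% and 1.2% of TPM. Their summed TPM was 8106, 9248, 8285 and 8575 in 5-week WT females and 8969, 7695, 9162 and 8620 in 5-week WT males. In 5-week Col6a2-/- females it was 10133, 12004, 9179 and 7731, and in males 11451, 9727, 10383 and 9180. The Col6a2-/- females spread most: replicate 2 had the highest sum of all 32 libraries, and replicate 4 lay below every WT female of that age. At 25 weeks the sums were 8470 to 9633 in WT females, 7238 to 8322 in WT males, 8978 to 10904 in Col6a2-/- females and 7655 to 9374 in Col6a2-/- males. The genotypes overlapped at 25 weeks, and WT males were the lowest group. Small-subunit genes made up 41.0% to 42.9% of the sum in every library, so the balance between the subunits at the RNA level moved little.

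**Figure D1:**
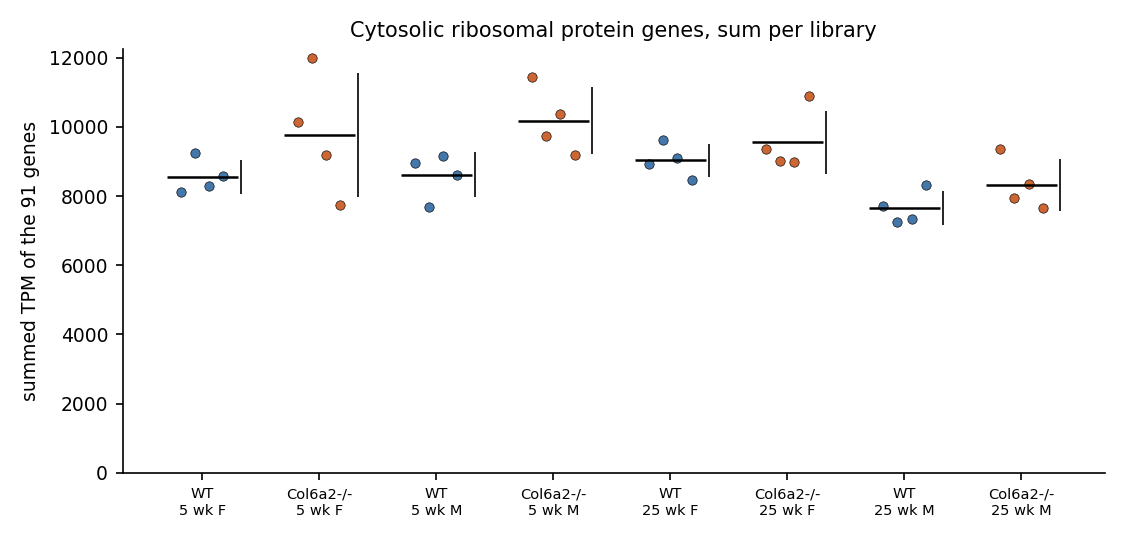
Summed TPM of the 91 genes (vertical axis, from 0) in each of 32 libraries, by genotype, age and sex. Each point is 1 library, horizontal bars are means and vertical bars 1 SD (n = 4); the highest point is replicate 2 of the 5-week Col6a2-/- females at 12004 TPM, and replicate 4 of that group lies at 7731.

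Levels differed more between members than between groups. Of the 91 genes, 88 reached 1 TPM in at least 4 libraries and were tested; Rpl10l, Rpl32l and Rpl39l did not, and Rpl39l stayed at or below 1.01 TPM and Rpl10l at or below 0.0325 TPM. The mean level over 32 libraries ran from 24.4 to 280.1 TPM among the 77 canonical genes, with a median of 103.1 TPM. The most abundant were Rplp1 (280.1 TPM), Rps27 (236 TPM) and Rplp0 (232 TPM), and the least abundant tested members were the copies Rps3a3 (1.07 TPM), Rps4l (1.83 TPM) and Rpl37rt (7.90 TPM). For 63 of the 88 tested members, all 32 libraries lay within 1.5-fold of the gene's own mean. Copies are less certain than canonical genes: the sequence of Rps3a1 recurs at 99.1% identity in Rps3a2 and 98.9% in Rps3a3, that of Rpl37 at 99.7% in Rpl37rt and that of Rpl6 at 96.5% in Rpl6l, so short reads may be shared between them.

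At 5 weeks, 31 of the 88 tested members were higher in Col6a2-/- muscle and none was lower. The called members made up 35.2% of those tested, against 25.4% of all genes (23.2% higher and 2.14% lower). In this fit their share stood a little above the background of a comparison in which many genes rose. That order turned when certain single libraries were left out. Without replicate 2 of the Col6a2-/- females 12 of 88 members were called, a share below the 17.9% of all genes. Without replicate 1 of the Col6a2-/- males 12 were called as well, below the 17.4% of all genes. The median change of the members was 0.21 and that of all genes 0.15, and 84 of 88 members had a positive change. Called members came from both subunits, 18 of 52 in the large and 13 of 36 in the small, with median changes of 0.22 and 0.19 over all tested members of each. Of the 30 tested members with a small nucleolar RNA gene inside them 13 were called, and of the other 58 members 18 were. Apart from Rpl3, the called changes lay between 0.21 and 0.43.

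The rise in TPM depended on how the libraries were scaled. It changed little when TPM was rescaled without mitochondrial and Rn7s genes. There 29 of 88 members were called, all higher, where 3092 of 12817 genes were called. The median change was then 0.20 for the members and 0.14 for all genes. With median-of-ratios size factors, which set the typical gene to no change, the median over all genes went from 0.15 to 0.001 and that of the members from 0.21 to 0.02. Under that scaling 11 of 88 members were called, 8 higher and 3 lower. This share lay below the 24.2% of all genes that were called (12.7% higher and 11.5% lower). The 8 that were higher included Rpl3, Rps19, Rps10, Rpl19, Rpl11 and Rpl6, and these same 8 members were called under each of the 4 scalings plotted beside TPM. The 3 that were lower were the paralogs Rpl3l, Rps27l and Rpl22l1. All 31 members called in TPM kept a positive change under each of 46 alternatives, but with median-of-ratios factors 51 of 88 members had a positive change and 37 a negative one.

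**Figure D2:**
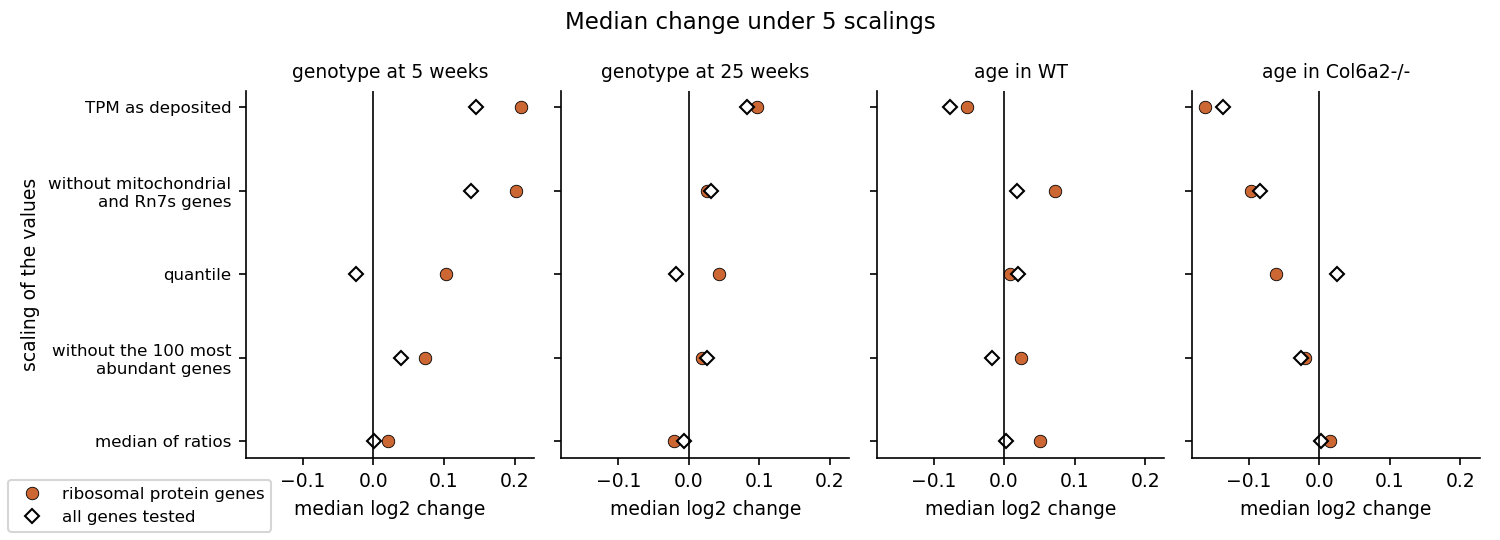
Median log2 change (horizontal axis) of the 88 tested ribosomal protein genes (filled circles) and of all 12817 genes (open diamonds) in 4 comparisons, under 5 scalings of the values. In the 5-week genotype comparison the members' median goes from 0.21 in TPM to 0.02 with median-of-ratios factors, and in the comparison of ages in WT it changes sign.

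Rpl3 (ENSMUSG00000060036, GRCm38 chr15:80077791-80091868, minus strand), a large-subunit protein close to the peptidyl transferase centre, changed most of all members called. In 5-week WT muscle it had 30.8, 31.97, 29.1 and 26.8 TPM in females and 37.8, 29.7, 34.4 and 37.5 TPM in males. In Col6a2-/- muscle it had 67.3, 71.5, 58.0 and 32.9 TPM in females and 79.3, 65.6, 58.5 and 52.1 TPM in males. Replicate 4 of the Col6a2-/- females lay within the WT range, and the other 7 lay above every WT library. The change was 0.86 (SE 0.122, limma adjusted p 8.05e-06), with 8 of 8 Col6a2-/- libraries above the WT mean of their sex. It was 0.87 in females (adjusted p 0.00151) and 0.84 in males (adjusted p 0.00244), and over 46 alternatives the adjusted p at 5 weeks ran from 1.88e-08 to 0.000124.

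At 25 weeks Rpl3 was the 1 member called, against 4.7% of all genes (4.47% higher). WT females had 33.5, 32.2, 32.9 and 26.7 TPM and WT males 22.3, 21.3, 20.4 and 21.8 TPM. Col6a2-/- females had 38.8, 34.6, 33.4 and 47.1 TPM and Col6a2-/- males 45.9, 30.3, 38.1 and 30.05 TPM. In males the genotypes were apart, while in females replicate 3 of Col6a2-/- lay within the WT range. The change was 0.49 (SE 0.122, limma adjusted p 0.0179), 0.70 in males (adjusted p 0.025) and 0.28 in females (unadjusted p 0.113). In males the call was lost without replicate 2 or 3 of WT or replicate 1 or 3 of Col6a2-/-, without a filter on TPM and without mitochondrial and Rn7s genes, with adjusted p from 0.0585 to 0.145. Without replicate 1 of the Col6a2-/- males the change was 0.43 with an adjusted p of 0.0589, and over all alternatives the adjusted p ran from 0.000683 to 0.0589.

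Rpl3l (ENSMUSG00000002500, chr17:24727820-24736143, plus strand), the muscle paralog with 75.0% identity to Rpl3 over its coding sequence (407 against 403 codons), did not rise with it. It had 71.3, 81.6, 64.8 and 69.9 TPM in 5-week WT females and 75.7, 78.0, 64.4 and 78.0 TPM in WT males. Col6a2-/- females had 62.6, 65.6, 56.2 and 69.9 TPM and Col6a2-/- males 61.7, 65.9, 75.7 and 56.5 TPM. The genotypes overlapped, and 7 of 8 Col6a2-/- libraries lay below the WT mean of their sex. The change of -0.18 (SE 0.0725) missed the threshold in TPM (adjusted p 0.0639). It was -0.37 with median-of-ratios factors (adjusted p 0.000894) and negative in all 46 alternatives, 9 of which called it. At 25 weeks the change was 0.07 (95% interval -0.08 to 0.22).

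The ratio of Rpl3l to Rpl3 within a library, taken as the difference of log2(TPM + 1), hardly depends on the scaling of the library. In 5-week WT muscle Rpl3l exceeded Rpl3 by a log2 ratio of 1.16 ± 0.180, and in Col6a2-/- muscle the 2 were close to equal, at 0.12 ± 0.436 (SD, n = 8). In plain TPM the ratio was 1.87 to 2.62 in the WT libraries, 0.778 to 1.29 in 7 of the Col6a2-/- libraries and 2.12 in replicate 4 of the Col6a2-/- females. The difference of -1.04 had an exact permutation p of 0.000408 (two-sided, within sex, the smallest that 4900 permutations can give; 0.00163 adjusted over 4 tests), with 8 of 8 libraries in that direction. At 25 weeks the log2 ratio was 1.30 ± 0.292 in WT and 0.88 ± 0.186 in Col6a2-/-, a difference of -0.42 in 7 of 8 libraries (exact permutation p 0.00204, adjusted 0.00327). Col6a2-/- males (0.708 to 1.10) lay below every WT male (1.33 to 1.70). Col6a2-/- females (0.580 to 1.11) overlapped WT females (0.987 to 1.11). From 5 to 25 weeks the ratio rose by 0.77 in Col6a2-/- muscle (exact permutation p 0.00245, adjusted 0.00327) and by 0.15 in WT (p 0.232 by the same exact test). The WT figure averages opposite directions in the sexes. In WT females the log2 ratio was 1.13 to 1.35 at 5 weeks and 0.987 to 1.11 at 25 weeks. In WT males it was 0.885 to 1.36 at 5 weeks and 1.33 to 1.70 at 25 weeks. The 2 genotype comparisons have no library in common, but each age comparison uses the same libraries as the genotype comparisons.

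**Figure D3:**
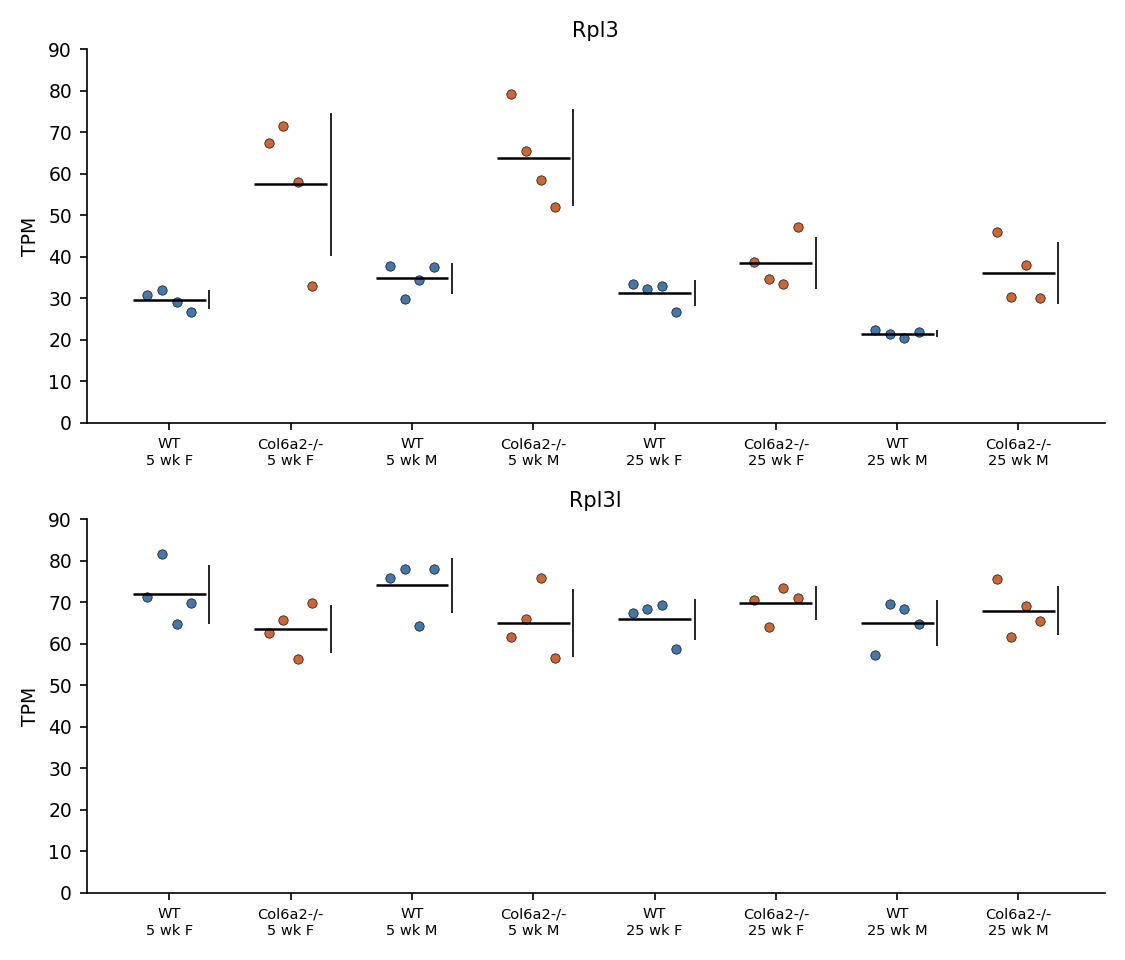
TPM of Rpl3 (upper panel) and Rpl3l (lower panel) in each of 32 libraries on the same axis, by genotype, age and sex. Points are libraries, horizontal bars means and vertical bars 1 SD (n = 4); in 5-week Col6a2-/- muscle Rpl3 reaches 52.1 to 79.3 TPM in 7 of 8 libraries, against 26.8 to 37.8 TPM in WT, while Rpl3l stays between 56.2 and 81.6 TPM in every library.

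Markers of other cell types differed between the same libraries. All 14 tested macrophage markers were higher in Col6a2-/- muscle at 5 weeks (median change 1.22) and 11 of 14 at 25 weeks (median change 0.69). Their summed TPM at 5 weeks was 76.0 to 79.7 in WT females, 83.2 to 126.5 in WT males, 117 to 407 in Col6a2-/- females and 280.3 to 406.6 in Col6a2-/- males. Replicate 4 of the Col6a2-/- females, low for Rpl3, had the lowest macrophage sum of its group (117 TPM), and replicate 2 the highest (407 TPM). Of the markers of regenerating fibres, 10 of 12 were higher at 5 weeks and 2 of 12 at 25 weeks. Their summed TPM, most of it from Actc1 and Myh8, which were not called, did not follow that count: it was 583 to 1111 in 5-week WT females, 538 to 1969 in Col6a2-/- females, 1745 to 3020 in WT males and 1194 to 1976 in Col6a2-/- males. Of the cell cycle genes 9 of 13, of the fibroblast markers 6 of 11 and of the endothelial markers 5 of 10 were higher at 5 weeks, while 8 of 15 fast-muscle markers were lower. At 25 weeks 6 of 11 fibroblast markers were higher (median change 0.58, against 0.32 at 5 weeks). None of the cell cycle, endothelial or fast-muscle markers was called at that age. Beside these counts of called markers, 23.2% of all genes were called higher and 2.14% lower at 5 weeks. At 25 weeks 4.47% of all genes were called higher. The part of these cell types in the change of Rpl3 or of the other members was not tested, and in whole muscle a change in the number of cells cannot be told apart from a change in RNA per cell.

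Among the other called members, the small-subunit genes led. Rps19, which is mutated in Diamond-Blackfan anaemia, had 65.3, 77.3 and 80.1 TPM (lowest, median and highest of 8) in WT and 74.3, 103 and 116 TPM in Col6a2-/-, a change of 0.41 (SE 0.0796, limma adjusted p 0.000428). For Rps19 a single Col6a2-/- library, replicate 4 of the females, lay within the WT range. Rps16 rose by 0.41 (SE 0.113, adjusted p 0.00876). In the large subunit Rpl19 went from 99.6, 106 and 118 TPM to 105, 141 and 170 TPM, a change of 0.38 (SE 0.0776, adjusted p 0.000803).

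No member had genotypes that were fully apart over 8 against 8 libraries at either age, where 1.18% of all genes were apart and higher and 0.125% apart and lower in Col6a2-/- at 5 weeks, and 0.663% and 0.0312% at 25 weeks. The same libraries set the extremes for nearly every member. The highest 5-week value lay in replicate 2 of the Col6a2-/- females for 61 of 88 members and in replicate 1 of the Col6a2-/- males for 19. The lowest Col6a2-/- value lay in replicate 4 of the females for 80 of 88. The count of 31 was 12 when replicate 2 of the Col6a2-/- females was left out (17.9% of all genes called), 12 when replicate 1 of the Col6a2-/- males was (17.4%), and 6 when both were (13.1%). It was 19 when the Col6a2-/- female replicate 1 was left out (20.4%), 16 when the WT male replicate 2 was (20.9%), and 59 when the Col6a2-/- female replicate 4 was (37.1%). The calls over all genes moved in the same direction. As shares of the 88 members, the counts of 12, 12, 6 and 16 lay below those of all genes, and 19 and 59 lay above.

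Proteins with a known place outside peptide synthesis gave mixed results at 5 weeks. Rps6, the target of the S6 kinases, had 88.3, 95.6 and 105 TPM in WT and 95.8, 115 and 142 TPM in Col6a2-/-, and rose by 0.27 (SE 0.0753, limma adjusted p 0.0111). Rpsa, also known as the laminin receptor, rose by 0.26 (SE 0.0755, adjusted p 0.0137). Rps27a, made as a fusion with ubiquitin, had a change of 0.17 that was not called (95% interval -0.10 to 0.43). The stalk proteins, which recruit elongation factors, were not called either: the changes were 0.22 for Rplp0, 0.14 for Rplp1 and 0.19 for Rplp2, with intervals that reach from -0.03 to 0.46 over the 3.

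The paralogs other than Rpl3l followed no common direction. Of the 11 tested copies or paralogs, Rpl3l among them, 2 were called at 5 weeks, Rpl7l1 and Rpl6l, both higher. Rpl6l was called in 34 of 46 alternatives. Rpl7l1 rose by 0.21 (limma adjusted p 0.0302), at 8.51 ± 0.943 TPM in WT and 10.1 ± 1.35 TPM in Col6a2-/- (SD, n = 8). Beside it Rpl7 rose by 0.27 (limma adjusted p 0.0179). Rpl7l1 was called in 32 of 46 alternatives, with changes down to 0.03, and under none of the 4 scalings plotted beside TPM. Rpl22l1 changed by -0.07 and Rpl22 by 0.11, Rps27l by -0.11 and Rps27 by 0.04, and Rpl36al by 0.03 and Rpl36a by 0.22, none of them called in TPM. Rps4l, a low-level relative of Rps4x, had a change of 0.19 that was not called, while Rps4x rose by 0.28 (adjusted p 0.0274). Rpl39 and Rpl10 are the canonical partners of the untested Rpl39l and Rpl10l: Rpl10 rose by 0.30 (adjusted p 0.017), and Rpl39 had a change of 0.25 (adjusted p 0.0765).

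**Figure D4:**
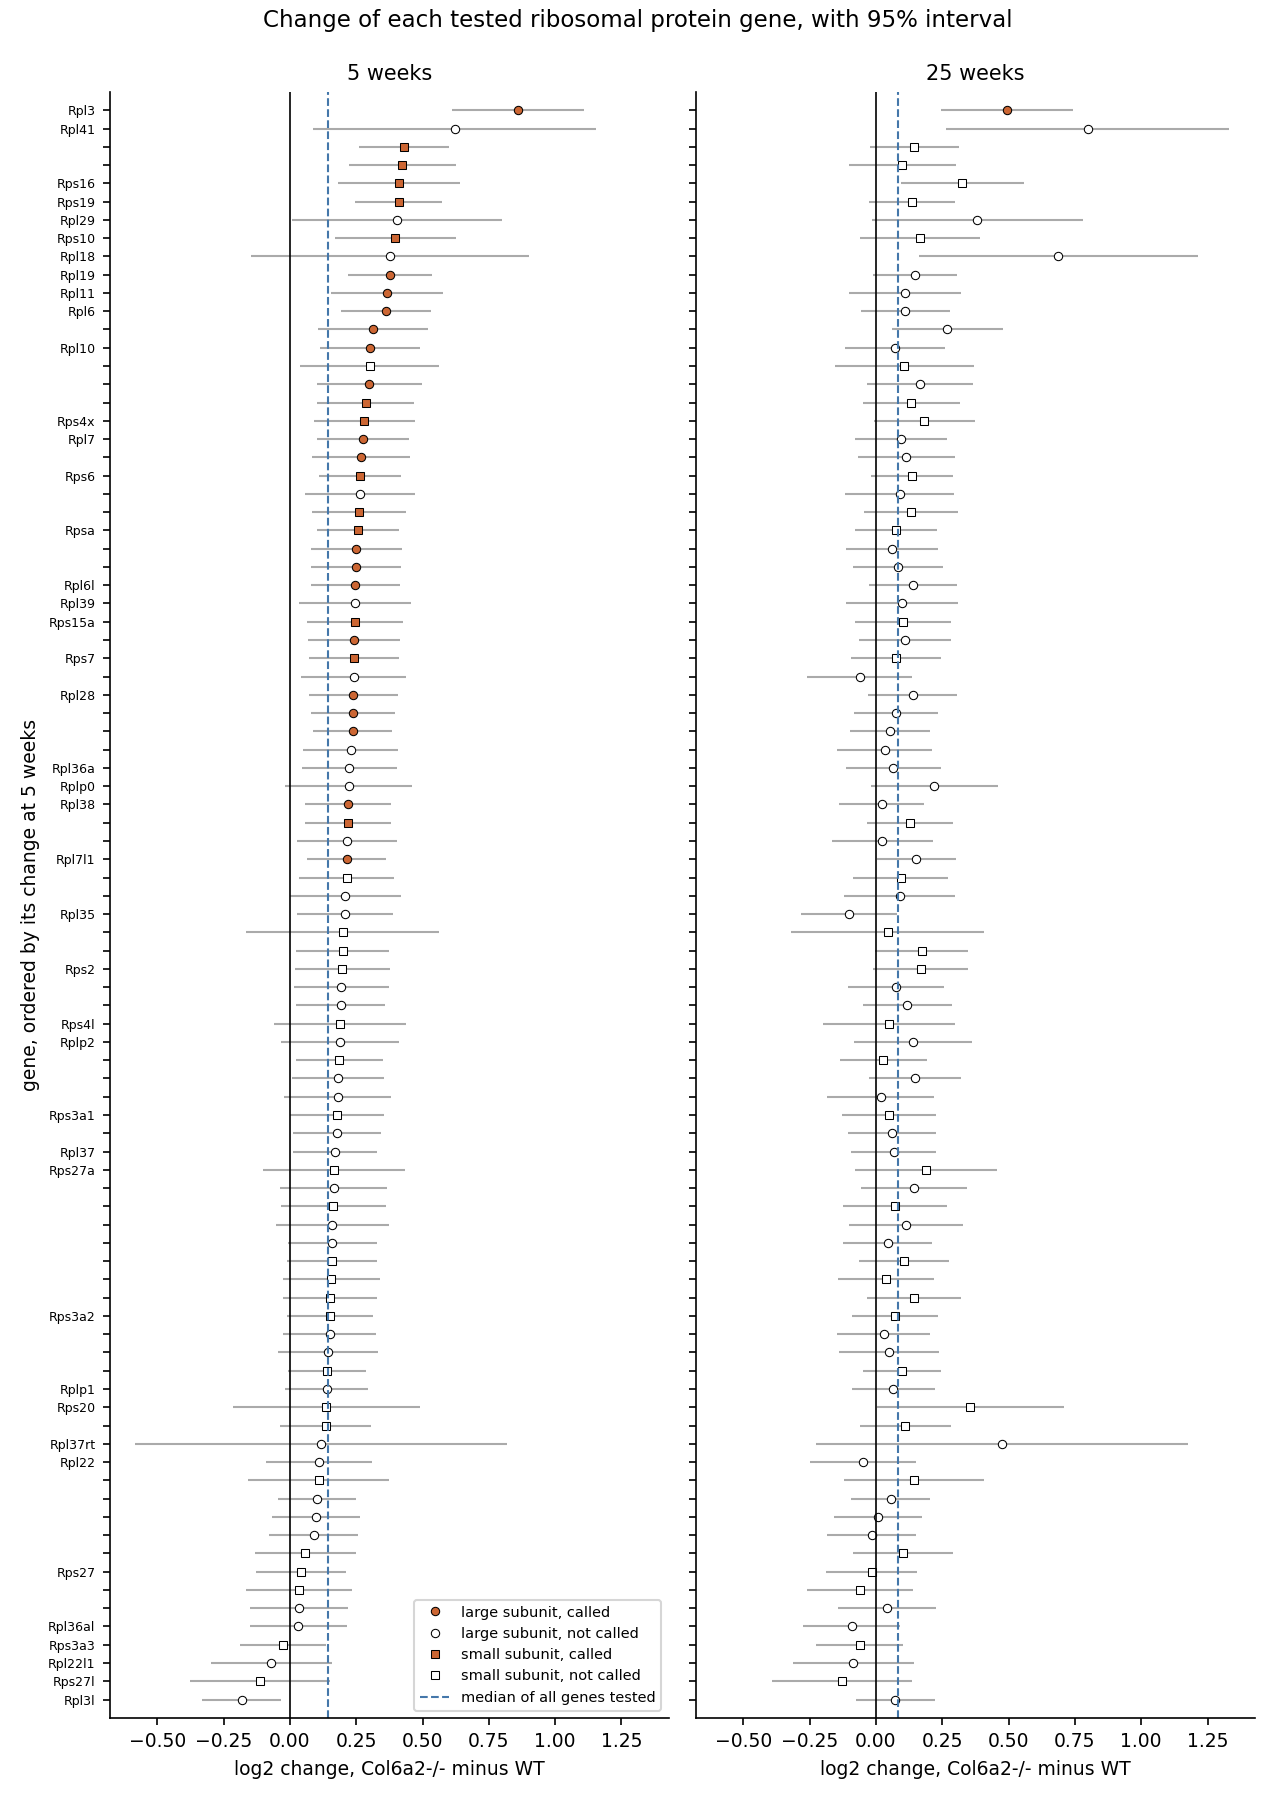
Log2 change between Col6a2-/- and WT (horizontal axis) with its 95% interval for each of the 88 tested members at 5 weeks (left) and 25 weeks (right), in the order of the 5-week change, with names for some of them. Circles are large-subunit and squares small-subunit genes, filled where called; the dashed line is the median of all 12817 genes (0.15 and 0.08). Rpl3 has the largest change at 5 weeks (0.86); at 25 weeks it is the 1 called member (0.49), and Rpl41 (0.80) and Rpl18 (0.69), not called, have larger changes with wide intervals.

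Within each sex the counts were smaller. In 5-week females 8 of 88 members were called, all higher (12.9% of all genes, 12.3% higher), among them Rpl3 and Rpl19. In 5-week males 6 were called, all higher (5.03% of all genes, 4.55% higher), among them Rpl41, Rpl3 and Rps19. The 4 members called in both sexes included Rpl3, and 77 members had a positive change in both in TPM. These counts depended on the scaling: with median-of-ratios factors 2 members were called in females, 1 higher and 1 lower, with 33 of 88 positive and a median of -0.03 (13.9% of all genes called), and 5 were called in males, all higher, with 71 positive (8.43% of all genes). Without mitochondrial and Rn7s genes 1 member was called in females (7.01% of all genes) and 19 in males (10.5%). Leaving out 1 library gave 1 to 35 called members in females: 35 without the Col6a2-/- female replicate 4 (30.2% of all genes) and 1 in several fits, such as that without the Col6a2-/- female replicate 2 (3.59%). In males it gave 2 without the WT male replicate 2 (3.18% of all genes), up to 8 without the Col6a2-/- female replicate 2 (7.81%). Rpl3 was called in both sexes at 5 weeks under each of 46 alternatives, and Rpl19 in females lost its call in 4 of 32 fits with a library left out and in 3 of 14 others. No member was called for a difference between the sexes in its response to genotype (limma, 0 of 88 and 1 with an unadjusted p under 0.05, against 0.0156% of all genes called), and the smallest p belonged to Rpl41. In 25-week males Rpl3 was the 1 member called (3.03% of all genes, 2.91% higher). In 25-week females none was called by limma and 2 had an unadjusted p under 0.05 (0.0078% of all genes called), with the smallest p for Rpl18 (change 0.83), Rps20 (0.51) and Rpl41 (0.73).

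The difference between the ages in the response to genotype was not called for any member. Of 88 members, 79 had a smaller change at 25 than at 5 weeks, with a median difference of -0.12 against -0.06 for all genes. Limma called 0 members and 9 had an unadjusted p under 0.05, in a comparison that called 0.492% of all genes. The smallest p were those of Rpl3l (difference 0.25, adjusted p 0.526), Rpl35 (-0.31, adjusted p 0.529) and Rps19 (-0.27, adjusted p 0.54). For Rpl3 the difference was -0.37 (95% interval -0.72 to -0.01, adjusted p 0.689).

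From 5 to 25 weeks, 23 members were lower in Col6a2-/- muscle and none was higher, where 34.2% of all genes were called (28.8% lower). In WT muscle 3 members were lower and none was higher, where 19.8% of all genes were called (15.3% lower). In TPM with all libraries the members called came to 26.1% and 3.41% of those tested, both below the background. For Col6a2-/- this order did not hold in every fit. Without replicate 4 of the 5-week Col6a2-/- females 46 of 88 members were called, a share above the 43.0% of all genes. Without replicate 2 of that group 15 were called (27.3% of all genes). Without that library and replicate 1 of the 5-week Col6a2-/- males 8 were called (23.6%), and both shares lay below the background. With age the members' mean summed TPM in WT went from 8553.5 to 9039.2 in females and from 8611.7 to 7655.2 in males. In Col6a2-/- it went from 9761.9 to 9563.1 in females and from 10185.5 to 8328.3 in males. The median change of the members was -0.16 in Col6a2-/- and -0.05 in WT, against -0.14 and -0.08 for all genes. These directions belong to the TPM scale: with median-of-ratios factors the medians were 0.02 in Col6a2-/- and 0.05 in WT, with 6 members higher and 8 lower in Col6a2-/- and 7 higher and 2 lower in WT. Of all genes the median-of-ratios fit called 34.5% in Col6a2-/- (16.4% higher and 18.1% lower) and 28.6% in WT (13.3% higher and 15.2% lower). Without mitochondrial and Rn7s genes 2 members were higher with age in WT and none was lower (8.64% and 9.04% of all genes). Relative depth was lower at 25 weeks. With inferred depth in the model 42 of the 88 members were lower in Col6a2-/-, a share above the 39.0% of all genes. In WT 11 were lower, a share below the 26.8% of all genes.

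Rpl3 fell most, by 0.66 in Col6a2-/- muscle (SE 0.122, limma adjusted p 0.000126), and it was called there under each of 46 alternatives. In WT its change was -0.30 (SE 0.122, adjusted p 0.0855), an average over sexes that differed. In WT females Rpl3 lay between 26.8 and 31.97 TPM at 5 weeks and between 26.7 and 33.5 TPM at 25 weeks. In WT males it lay between 29.7 and 37.8 TPM at 5 weeks and between 20.4 and 22.3 TPM at 25 weeks. Rps7, a small-subunit protein, had 116, 150 and 188 TPM at 5 weeks and 91.6, 114 and 134 TPM at 25 weeks in Col6a2-/- muscle, a fall of 0.43 (SE 0.0833, adjusted p 0.000256). In WT it went from 115, 130 and 142 TPM to 86.2, 111 and 128 TPM, a fall of 0.26 (SE 0.0833, adjusted p 0.026). The ages overlapped in both genotypes. Rps4l fell by 0.45 (SE 0.121, adjusted p 0.00503) and Rpl11, which binds the p53 regulator Mdm2, by 0.35 (SE 0.103, adjusted p 0.0106) in Col6a2-/- muscle. The other 2 called in WT were Rps2, which fell by 0.26 (SE 0.0874, adjusted p 0.0338), and Rpl7l1, which fell by 0.21 (SE 0.0723, adjusted p 0.0373). These 3 members were lower with age under each of 46 alternatives in WT, though each lost its call in some of them.

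Between males and females over both ages and genotypes no member was called by limma, and 14 of 88 had an unadjusted p under 0.05, where 3.05% of all genes were called. In this average over ages and genotypes 81 members had a lower value in males, with a median of -0.09 against 0.02 for all genes. The smallest p belonged to Rpl22l1, at 0.27 higher in males (adjusted p 0.0614), Rps6, at -0.16 (adjusted p 0.103), and Rps16, at -0.24 (adjusted p 0.113). With median-of-ratios factors 18 members were called, 17 of them lower in males, where 6.41% of all genes were called (2.79% lower). Without mitochondrial and Rn7s genes the median of the members was -0.03, with 29 positive and 59 negative changes. The 1 member called there was higher in males, where 582 of 12817 genes were called. In TPM the members' mean sum was lower in males at 25 weeks only. At 5 weeks it was 8553.5 in females and 8611.7 in males in WT, and 9761.9 and 10185.5 in Col6a2-/-. At 25 weeks it was 9039.2 in females and 7655.2 in males in WT, and 9563.1 and 8328.3 in Col6a2-/-. Whether the difference between the sexes depends on age was not tested.

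Other genes of the translation machinery were read from lists. Of 22 translation partners whose mRNAs are known as TOP mRNAs, 7 were higher at 5 weeks (31.8%, beside 23.2% of all genes) and none was lower (median 0.22), and 2 were higher at 25 weeks (9.09%, beside 4.47% of all genes). The largest rise was that of Eef1a1 (ENSMUSG00000037742, chr9:78478449-78489151), the elongation factor that brings aminoacyl-tRNA to the ribosome, with 179 ± 31.9 TPM in WT and 372 ± 96.8 TPM in Col6a2-/- (SD, n = 8). At 5 weeks this was a rise of 1.02 (SE 0.136, adjusted p 3.21e-06 by limma). At 25 weeks it rose by 0.64 (adjusted p 0.00644), and Eef1b2, a subunit of its exchange factor, by 0.43 (adjusted p 0.0428). Eef1a2, the isoform that takes over in mature muscle and neurons, had a change of -0.16 at 5 weeks that was not called in TPM. This change lay between -0.37 and -0.13 over 46 alternatives, 4 of which called it. Fau, outside the naming rule, rose by 0.39 (adjusted p 0.000514) at 5 weeks; it was singled out after its values were seen.

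Genes that build or control ribosomes were called in shares below the 23.2% of all genes that were higher at 5 weeks. Of 57 ribosome biogenesis genes, 8 were higher (14.0%) and none was lower (median 0.14, against 0.15 for all genes), and none was called at 25 weeks. Of 18 tested genes of ribosomal protein assembly and turnover, 2 were higher at 5 weeks (11.1%), and 17 had a positive change with a median of 0.20, beside 0.21 for the cytosolic ribosomal proteins. The largest called rise was in Mdm2, a ubiquitin ligase for p53, at 0.56 (SE 0.149, limma adjusted p 0.00699). Of 24 tested genes of mTORC1 and translation control 4 were higher (16.7%, median 0.08), and of 8 host genes of small nucleolar RNAs with TOP mRNAs 1 was higher (12.5%, median 0.12). The 82 tested proteins of the mitochondrial ribosome, a separate machine encoded by other genes, had 3 members higher at 5 weeks and a median change of 0.05. No test compared these lists with the cytosolic set.

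For 4 members the values fell into separate ranges that split several of the groups; these were singled out after their values were seen. Rpl41, the smallest ribosomal protein, lay between 48.5 and 79.2 TPM in 18 libraries and between 124 and 227 TPM in 14, with none between. In 5-week females it was 59.3, 56.1, 144 and 148 TPM in WT and 77.1, 79.2, 68.8 and 52.7 TPM in Col6a2-/-, while in 5-week males it was 58.8, 55.5, 71.0 and 61.6 TPM in WT and 227, 185, 198 and 179 TPM in Col6a2-/-. All 4 Col6a2-/- males lay in the upper range and all WT males in the lower, which gave a change of 1.66 in males (SE 0.369, limma adjusted p 0.00537) beside -0.42 in females (adjusted p 0.465). Rpl18 lay between 14.4 and 35.3 TPM in 6 libraries, 5 of them WT, and between 48.8 and 85.7 TPM in the other 26. Rpl29 lay between 23.2 and 30.1 TPM in 4 libraries, all WT, and at 46.0 TPM or more in the other 28, and Rpl37rt lay at or below 1.21 TPM in 3 libraries and at 4.55 TPM or more in 29. The origin of the separate ranges was not tested, and the fitted changes of these 4 genes rest on which libraries fell in which range.

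**Figure D5:**
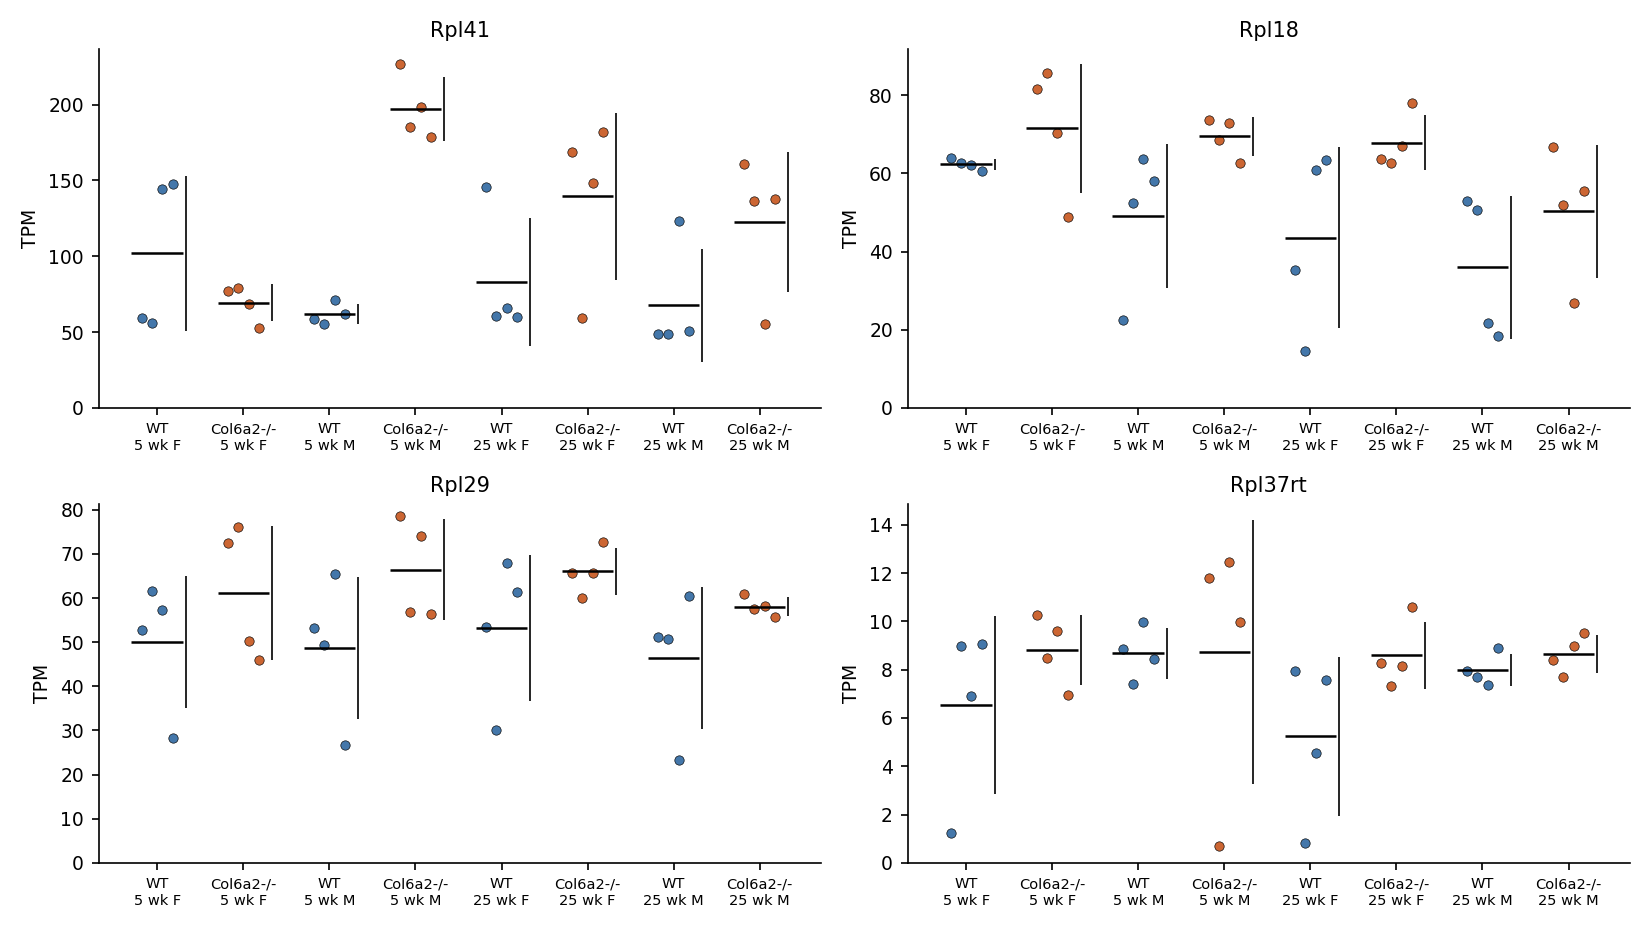
TPM of Rpl41, Rpl18, Rpl29 and Rpl37rt in each of 32 libraries, by genotype, age and sex, each panel with its own axis from 0. Points are libraries, horizontal bars means and vertical bars 1 SD (n = 4); all libraries of Rpl41 lie either below 79.2 TPM or above 123 TPM.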

How the data were processed

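Quadriceps RNA of 32 mice was sequenced (paired-end, TruSeq RNA kit, per the labels' protocols). The submitters' processing notes name FastQC, MultiQC, Trimmomatic, HISAT2, SAMtools and StringTie and the builds GRCm38 and mm10, without roles. Per the file headers, each deposited table gives TPM, FPKM and coverage per gene, as computed by the authors. TPM sums to the same total in every library. FPKM and coverage served only to infer relative depth. The deposited values are not counts, so the branch for normalised values of the design was used.

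TPM was summed per gene ID. Genes that reached 1 TPM in 4 or more libraries (12817) were tested as log2(TPM + 1), a scale that understates changes of low genes, with limma 3.58.1 in R 4.3.3: 1 mean for each of 8 groups over all 32 libraries, eBayes with a trend, sexes weighted equally, two-sided, in 11 comparisons, and 2 comparisons of genotype by sex within an age added after the data were seen. The ratio of Rpl3l to Rpl3 was tested by exact permutation within sex. Python 3.11.15, numpy 2.4.6, pandas 2.3.3 and matplotlib 3.10.9 were used. On simulated data the fit recovered 83% of log2 changes of 0.5 and 98% of changes of 1 for genotype at 5 weeks over 12817 genes. Of the calls there, 5.24% were false. The simulated noise was independent between genes, whereas single real libraries shifted many genes together. These rates therefore check the code and do not measure power or error in the real data. The highest correlation between 2 libraries was 0.984, so none was taken as a duplicate. The labels do not say more on litters or cages, so p-values measure the spread between these mice.

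The members and gene lists were chosen with earlier results of these data known. Named were the paralog pairs, the stalk proteins, Rpsa, Rps6 and Rps27a, per comparison the 5 called members with the largest rise and fall (or the 3 smallest p), the 3 most and least abundant, and from the other lists the 2 largest called changes in each direction. A few genes the rule names are not reported here. Names with -ps (291) were left out; their TPM came to 6.19% to 7.08% of the members' TPM. Alternatives covered pseudocount, filter, scaling, replicate block, trend, weights and leaving out each library. Sequences come from RefSeq (GRCm38.p6), and coding sequences for identity from GENCODE M21.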

Additional observations from a re-analysis of the deposited data

Results flagged for a closer look

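In 112 sets of 4 libraries (14 quantities in 8 groups), 6 held 1 library far from the other 3 by Dixon's criterion, and chance alone marks about 1 in 20. The log2 ratio of Rpl3l to Rpl3 in 5-week Col6a2-/- females was 1.06 in replicate 4 and between -0.12 and -0.04 in the others; that library also had the lowest sum of macrophage markers of its group, at 117 TPM. Rpl3l in 5-week WT males was 64.4 TPM in replicate 3 and 75.7 to 78.0 TPM in the others. In 25-week Col6a2-/- females replicate 4 stood apart for Rps6 (134.7 TPM against 112 to 115 TPM) and Rplp0 (333 TPM against 204 to 219 TPM). Rpl41 was 145.7 TPM in replicate 1 of the 25-week WT females against 59.9 to 65.7 TPM, and 123.5 TPM in replicate 3 of the 25-week WT males against 48.5 to 50.5 TPM.

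Every 5-week Col6a2-/- male lay above the WT mean of Rpl41 and every 5-week Col6a2-/- female below it. The difference between the sexes was 2.08 (SE 0.521), with an adjusted p of 0.9998 by limma, so it did not pass the correction over all genes.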

How the results depend on the processing

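Each comparison was refitted under 46 alternatives, 3 of them chosen after seeing the data: without the 2 Col6a2-/- libraries of highest sum, rescaled to the members' sum, and with inferred depth as a covariate. Medians changed sign in several comparisons. The median for age in WT, -0.05 in TPM, was 0.05 with median-of-ratios factors, 0.07 without mitochondrial and Rn7s genes, 0.02 without the 100 most abundant genes and 0.0078 with quantile normalization. The median for genotype at 25 weeks, 0.10 in TPM, was -0.02 with median-of-ratios factors and -0.0019 rescaled to the members' sum, and that for age in Col6a2-/- is given below. Rescaling to the members' sum makes that sum equal in every library, so a median near 0 there follows from the scaling itself. With median-of-ratios factors the median was also -0.03 in 5-week females (0.20 in TPM) and -0.08 in 25-week males (0.11 in TPM). With quantile normalization it was -0.0053 for genotype by sex (0.04 in TPM). No member was called in any of them for genotype by age, for genotype by sex or in 25-week females. With median-of-ratios factors the members called were 11 at 5 weeks (24.2% of all genes called), 2 at 25 weeks and 2 in 5-week females (13.9%). Under the same factors they were 9 for age in WT (28.6%), 14 for age in Col6a2-/- (34.5%) and 18 for sex (6.41%). Without the 100 most abundant genes they were 11 at 5 weeks, 3 in 5-week females, 7 and 15 for age in WT and Col6a2-/- and 12 for sex. With quantile normalization they were 17 at 5 weeks, 5 for age in WT and 3 for sex. Without mitochondrial and Rn7s genes they were 1 and 19 in 5-week females and males (7.01% and 10.5% of all genes called). In that fit they were 0 in 25-week males, 10 for age in Col6a2-/- and 1 for sex. With array weights they were 49 at 5 weeks, 3 at 25 weeks, 18 and 11 in 5-week females and males, 4 in 25-week males, 7 and 39 for age in WT and Col6a2-/- and 5 for sex. Without a filter they were 2 at 25 weeks, 2 in 5-week females and 0 in 25-week males. Rescaled to the members' sum they were 11 at 5 weeks, 3 at 25 weeks, 2 in 5-week females, 9 for age in WT and 1 for sex. With inferred depth they were 20 at 5 weeks, 11 for age in WT and 42 for age in Col6a2-/-. Without both libraries of highest sum they were 6 at 5 weeks, 1 in 5-week females, 8 for age in Col6a2-/- and 1 for sex. Counts over all genes moved too: of 12817 genes, 3253 were called at 5 weeks in TPM, 4154 with array weights, 2577 with inferred depth, 2729 rescaled to the members' sum and 1651 without both libraries of highest sum. At 25 weeks 603 were called in TPM and 1967 with array weights, and for age in Col6a2-/- 4389 in TPM, 5143 with array weights and 5618 with inferred depth. The cause of these shifts was not tested. Where a count of members stands here without the share of all genes, it does not show a change particular to the members.

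The median change at 5 weeks was 0.0212 with median-of-ratios factors and 0.00564 rescaled to the members' sum. For age in Col6a2-/- it was 0.0156 and -0.0109 under those settings and -0.0208 without the 100 most abundant genes. Leaving out 1 library at a time gave 12 to 59 members at 5 weeks, 0 to 2 at 25 weeks (0 without replicate 1 of the Col6a2-/- males), 1 to 35 in 5-week females, 2 to 8 in 5-week males, 0 to 1 in 25-week males, 0 to 5 for age in WT, 15 to 46 for age in Col6a2-/- and 0 to 1 for sex. The count of 46 came without replicate 4 of the 5-week Col6a2-/- females and that of 15 without replicate 2 of that group (43.0% and 27.3% of all genes called).

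Same-numbered libraries had a median correlation of 0.03 over 112 pairs, 35 of them over 0.1, and libraries of unlike number -0.01 over 336 pairs, 65 of them over 0.1. Not every same-numbered pair exceeded 0.1, so the samples are taken to share only a number. With the replicate block 31 members were called at 5 weeks, 1 at 25 weeks, 6 in 5-week females, 5 in 5-week males, 3 for age in WT and 21 for age in Col6a2-/-. The shares of all genes called with the block are not given here, so these counts are not set against them. Depth was inferred only in relative terms, so the precision of single values is not known.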
